A study of Mus musculus with 32 samples.

Results

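The genes of 6 cell surface receptors through which hormones turn fat breakdown up or down were followed in the subcutaneous white fat of mice after weight loss surgery. They are the beta-adrenergic receptors Adrb1 and Adrb3, the alpha-2A adrenergic receptor Adra2a, the natriuretic peptide receptors Npr1 and Npr3 and the adenosine A1 receptor Adora1. The members were chosen by gene name from a table of 18124 genes, all 6 names were found, each on 1 row, and all 6 were among the 15588 genes with a mean value of at least 10 that were tested.

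Lipolysis, the release of fatty acids and glycerol from stored triglyceride, is started in fat cells mainly by catecholamines. Beta-adrenergic receptors act through the stimulatory G protein to raise cAMP, which activates protein kinase A and through it the lipases of the lipid droplet, whereas alpha-2A and adenosine A1 receptors couple to inhibitory G proteins and hold cAMP down. Natriuretic peptides offer a separate route, in which Npr1 is a guanylyl cyclase that makes cGMP on binding its ligand, and Npr3 lacks a cyclase and removes the peptides from the circulation.

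C57BL/6J mice had either vertical sleeve gastrectomy (VSG), an operation in which most of the stomach is cut away, or a sham operation, and fat was collected 9 days later. Collection was spread over the day at zeitgeber times ZT1, ZT7, ZT13 and ZT19, counted in hours from lights on. Each of the 8 combinations of surgery and time has 4 animals with 1 library each, so that 16 sham and 16 VSG libraries make up the 32. Both surgeries shared a liquid diet before the operation, an overnight fast, liquid diet alone at first afterwards and then a choice of liquid diet and HFD. The labels name no genotype other than the strain, no sex, age, pooling or batch. They give each animal a weight loss with no unit, which had a median of 5.24 in sham animals (2.15 to 8.96) and 16.0 in VSG animals (10.59 to 23.12).

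Values are the deposited normalized values, which are gene counts divided by a size factor for each library. Recovered reads per library numbered 15723832 to 37161290. Fold changes are VSG relative to sham on the log2(value + 1) scale, with the standard error, and a gene was called at an adjusted p under 0.05 from limma with Benjamini-Hochberg adjustment over all 15588 genes. The tissue label held, since all 12 adipocyte markers were present, with a summed value of 739761 to 1587400 in the sham and 735467 to 1786850 in the VSG libraries; 0 of 12 rose and 3 fell (Lep, Cidec and Retn). Macrophage markers rose in 11 of 12 cases after VSG (summed value 31090.4 to 123793 after sham surgery, 33462 to 172630 after VSG), and neutrophil markers in 11 of 11 (218 to 1061 and 576 to 18303). Some libraries stood apart from the rest. B cell and lymph node markers were high in 4 of them (1 sham, 3 VSG), skeletal muscle markers in 7 (2 sham, 5 VSG) and brown and beige adipocyte markers in 2 (1 sham, 1 VSG); the fits across all genes and the correlations between members were also computed without the B cell-rich, muscle-rich or beige-rich libraries, as these are called from here on. Levels per length, receptor ratios and the most similar genes were computed over all 32 libraries. The B cell-rich libraries are sham ZT1 replicate 1, VSG ZT1 replicates 1 and 3, and VSG ZT13 replicate 1. The muscle-rich ones include VSG ZT19 replicates 1, 2 and 4, so fits without them keep replicate 3 alone in that group. Of the other marker lists, 2 of 12 endothelial genes rose and 2 fell, 1 of 10 pericyte and smooth muscle genes rose and 4 fell, 1 of 10 adipose progenitor genes rose and 3 fell, 6 of 11 Schwann cell and nerve genes rose and 1 fell, 1 of 2 tested mammary and skin epithelial genes rose, 4 of 15 B cell genes rose and 1 of 16 skeletal muscle genes fell. In bulk tissue, fewer cells of a type and less RNA per cell cannot be told apart.

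After VSG, transcripts of Adrb3, Npr1 and Adra2a were higher and those of Npr3 and Adora1 were lower over the 4 times together. Adrb3 rose 1.73-fold, Adra2a 1.37-fold and Npr1 1.22-fold, while Npr3 was 1.53-fold and Adora1 1.42-fold lower. Of the 6 members, 5 were called, 3 higher and 2 lower. Over all genes tested, 39.2% were called in this comparison, 18.3% higher and 20.9% lower after VSG, and the median log2 fold change was 0.01. The stimulating receptors Adrb3 and Npr1 rose, and the restraining Adora1 and the clearance receptor Npr3 fell. Adra2a, which lowers cAMP as Adora1 does, rose. The p-values weigh each difference against the spread between the animals sampled within groups.

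**Figure D1:**
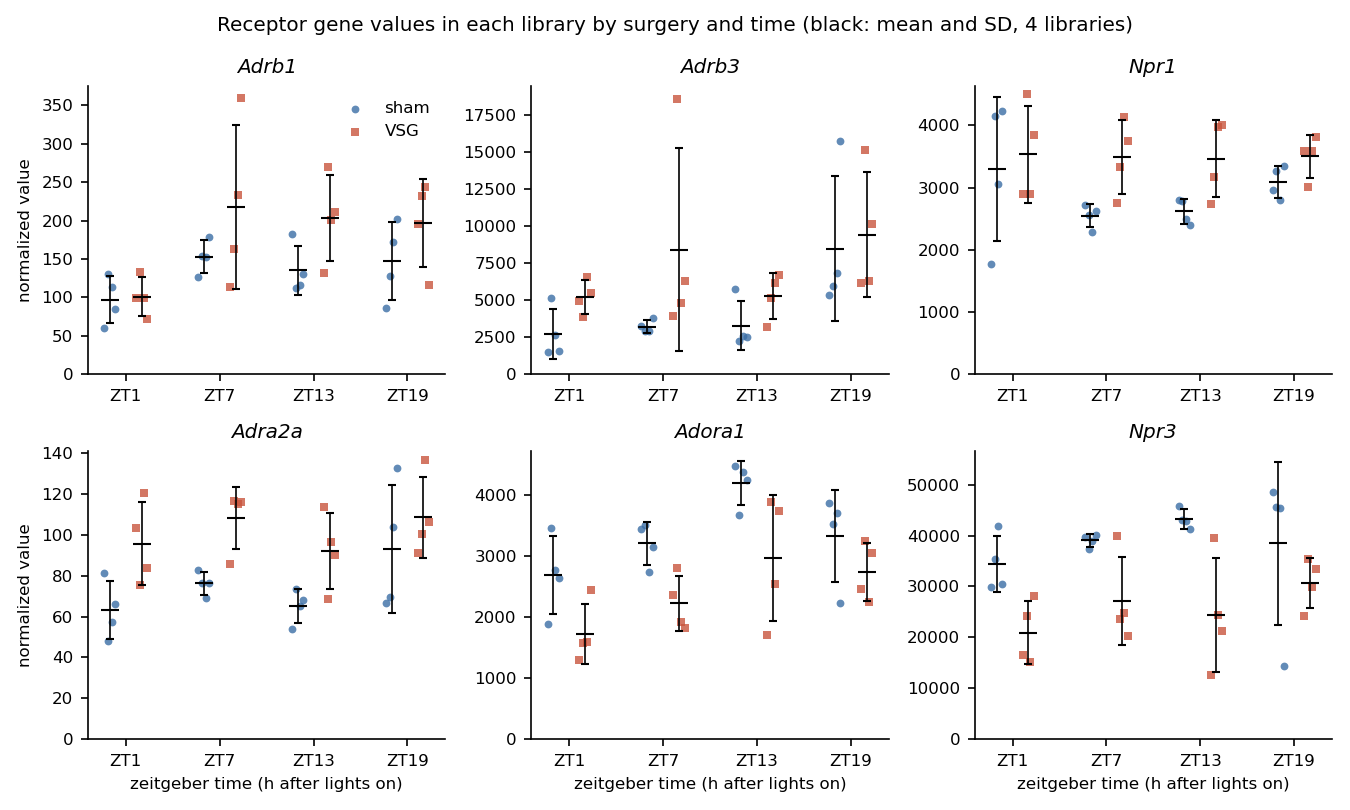
Normalized value (vertical axis) of each receptor gene at each zeitgeber time (horizontal axis), with 1 point per library, circles for sham and squares for VSG, and the mean and SD of each group of 4 in black. Adrb3 reached 15139, 15762 and 18598 in 3 libraries, 1 of them sham, and in Npr3 all VSG libraries lie below all sham libraries at ZT1 and ZT13.

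The receptors that stimulate lipolysis come first. Adrb3 (ENSMUSG00000031489, mm10 chr8:27225776-27229588, minus strand) encodes the beta-3 receptor, the main catecholamine receptor of mouse fat cells. It ranged from 1499 to 15762 around a median of 3093 in the sham libraries and from 3196 to 18598 around a median of 6184 after VSG. The ranges overlapped.

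At ZT7 the sham animals had 2893, 2894, 3292 and 3820.2, and the VSG animals 3944, 4826, 6315 and 18598. Every VSG library was above every sham library at that time. The share of all genes separated in this way was not computed, here or for the other members. At ZT1 the sham values were 1499, 1562, 2637 and 5125 and the VSG values 3863, 4927, 5482 and 6597, which overlapped through a single sham library. At ZT19 sham fat held 5342, 5982, 6863 and 15762 and VSG fat 6179, 6299, 10144 and 15139, and the groups overlapped throughout. The log2 fold change over all times was 0.79 ± 0.21 (adjusted p = 0.00491, limma).

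Adrb3 moved with markers of brown and beige adipocytes in single libraries. The 2 libraries highest in these markers, VSG ZT7 replicate 2 with a summed value of 16651 over 9 genes and sham ZT19 replicate 4 with 13428, also had the 2 highest Adrb3 values, 18598 and 15762. The other 30 libraries had summed values of 1599.8 to 5627. In those 2 libraries Ucp1, the uncoupling protein that defines brown fat, stood at 3127 and 1352. Between surgeries the brown and beige list did not rise: 0 of its 9 tested members were higher and 4 were lower after VSG, and the medians of its sum were 4431 after sham surgery and 3717 after VSG. Without the 2 libraries the Adrb3 difference was 0.76 (adjusted p = 0.00143). Without the 7 muscle-rich libraries it was 0.60 and was no longer called, in a fit with VSG ZT19 replicate 3 alone in its group.

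**Figure D2:**
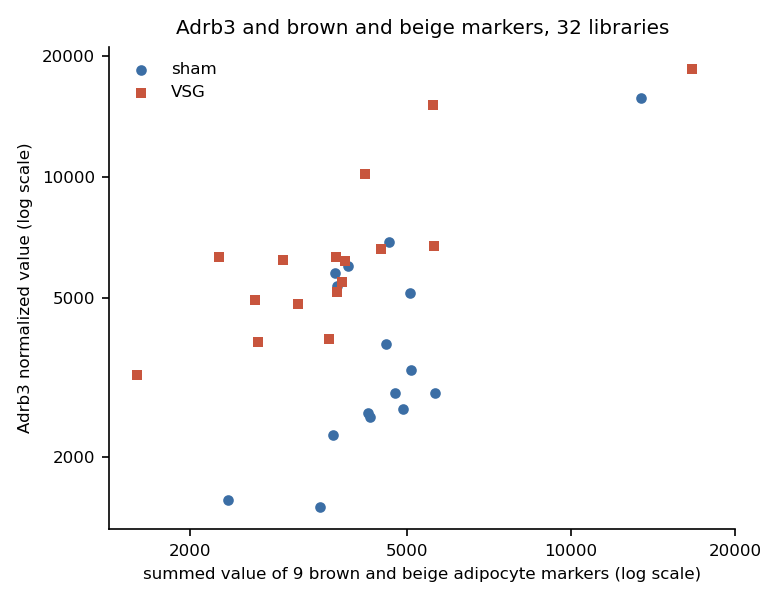
Normalized value of Adrb3 (vertical, log scale) against the summed value of the 9 brown and beige adipocyte markers (horizontal, log scale) in 32 libraries, circles for sham and squares for VSG. The 2 libraries at the right, 1 of each surgery, have the 2 highest Adrb3 values, and among the rest the VSG squares tend to lie above sham circles of like marker sum.

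Adrb1 (ENSMUSG00000035283, chr19:56722372-56724862, plus strand) encodes the beta-1 receptor, the other beta receptor of the 6 members. It was a scarce transcript, with 59.9 to 202 and a median of 129 in the sham libraries and 71.8 to 360.2 with a median of 179.5 after VSG, on 61 to 378 reads. The groups overlapped at all 4 times. Its difference over all times, 0.37 ± 0.16, did not pass the threshold (adjusted p = 0.0642, limma), with the per-time estimates at 0.08, 0.39, 0.57 and 0.43 from ZT1 to ZT19. On the recovered reads it was called, at 0.40 by edgeR (adjusted p = 0.0435) and 0.40 by DESeq2 (adjusted p = 0.0309).

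Npr1 (ENSMUSG00000027931, chr3:90450591-90465866, minus strand), the cGMP-making receptor for atrial and B-type natriuretic peptide, was well expressed. It ranged from 1769.9 to 4235 with a median of 2792 after sham surgery and from 2733 to 4499 with a median of 3597 after VSG. The difference was 0.29 ± 0.10 (adjusted p = 0.0182, limma), the smallest of the 5 called. Sham libraries at ZT7 had 2292, 2558, 2621 and 2725, and VSG libraries 2759, 3329, 3756 and 4137, without overlap. At ZT1 there was full overlap, with sham values of 1769.9, 3057, 4152 and 4235 and VSG values of 2891, 2899, 3847 and 4499. Without the 7 muscle-rich libraries the estimate stayed at 0.30 and was not called, again with VSG ZT19 replicate 3 alone in its group.

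The remaining members restrain lipolysis or remove a lipolytic ligand. The stretches of 250 bases before the annotated start of Adra2a, Adora1 and Npr3 are shown because these 3 genes, as given below, also varied together from animal to animal within groups. They are RefSeq sequences on GRCm38.p6, written 5′ to 3′ on the strand of the gene and ending at the base before the start. Capitals mark matches on either strand to 4 motifs: the cAMP response element core TGACG, the E-box CACGTG, the GC box GGGCGG and the TATA box TATAAA.
Adra2a, chr19:54045009-54045258, plus strand: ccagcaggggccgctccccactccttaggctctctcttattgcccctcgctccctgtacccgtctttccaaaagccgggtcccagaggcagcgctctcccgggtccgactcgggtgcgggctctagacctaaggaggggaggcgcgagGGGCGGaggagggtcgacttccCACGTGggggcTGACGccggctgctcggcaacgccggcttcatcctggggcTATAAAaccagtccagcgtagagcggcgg
Adora1, chr1:134235458-134235707, minus strand: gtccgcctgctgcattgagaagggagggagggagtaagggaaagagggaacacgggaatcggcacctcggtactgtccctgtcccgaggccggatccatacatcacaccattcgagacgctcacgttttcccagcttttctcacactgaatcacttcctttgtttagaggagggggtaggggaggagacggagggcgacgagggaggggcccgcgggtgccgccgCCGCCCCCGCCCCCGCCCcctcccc
Npr3, chr15:11907372-11907621, minus strand: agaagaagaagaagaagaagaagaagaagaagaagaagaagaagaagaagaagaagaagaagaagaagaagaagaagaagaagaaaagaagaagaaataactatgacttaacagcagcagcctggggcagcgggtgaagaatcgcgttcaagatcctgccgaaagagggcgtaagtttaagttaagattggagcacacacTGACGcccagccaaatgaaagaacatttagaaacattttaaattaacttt
The Adra2a stretch holds each of the 4 motifs, with a TATA box beginning 29 bases before the start, TGACG at 69, CACGTG at 80 and the GC box at 102. The Adora1 stretch, from the first of 2 RefSeq starts, holds GC boxes alone, 3 of them side by side. The Npr3 stretch holds TGACG at 50 bases before the start and begins with 28 repeats of the AAG triplet in any frame, and its GC content is 38.8% against a median of 52.4% over 32851 mouse promoters. Of all those promoters, 17.8% hold TGACG, 6.02% CACGTG, 32.7% the GC box and 12.4% TATAAA in a window of this length. These are matches of letters only, and whether they bear on how the 3 genes vary was not tested. The Npr3 start used by RefSeq lies upstream of the gene end given in the deposited table. The Adra2a start used by RefSeq lies inside the span given there, which begins at 54045182. The end of the Adra2a stretch, with its TATA box and TGACG, therefore overlaps that span. Promoters of 5 of the 6 members were matched, and Adrb3 was not among them.

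Adra2a (ENSMUSG00000033717, chr19:54045182-54048982, plus strand) encodes the alpha-2A receptor, which couples to inhibitory G proteins. It was the lowest of the members per transcript length and rested on 42 to 210 reads per library. Sham values ran from 48.0 to 132 with a median of 69.4 and VSG values from 68.7 to 137 with a median of 102. At ZT7 the sham libraries had 69.2, 76.2, 76.5 and 82.8 and the VSG libraries 85.6, 115, 116 and 117, with no overlap. At ZT13 sham fat had 53.9, 65.0, 67.9 and 73.4 against 68.7, 90.3, 96.3 and 114 after VSG, where 1 VSG library fell among the sham values. The rise over all times was 0.46 ± 0.10 (adjusted p = 0.00109, limma), and it was called in all 14 other settings and in all 32 fits that left out 1 library.

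Adora1 (ENSMUSG00000042429, chr1:134199223-134235431, minus strand) encodes the adenosine A1 receptor, through which adenosine released in fat restrains lipolysis. It ranged from 1887 to 4473 around a median of 3481 after sham surgery and from 1297 to 3879.8 around a median of 2399 after VSG. Values at ZT13 were 3661, 4239.6, 4379.6 and 4473 in sham fat and 1698, 2545, 3739 and 3879.8 in VSG fat. At ZT7 they were 2732, 3141, 3438 and 3511 in sham and 1815, 1909, 2364 and 2803 in VSG fat. At both times a single sham library reached into the VSG range, and groups overlapped at every time. The fall was -0.51 ± 0.11 on the log2 scale (adjusted p = 0.00109, limma) and was called in all 14 other settings, with estimates of -0.59 to -0.32. Of the lowest VSG values, 1297, 1565, 1597 and 1698, all but 1565 came from B cell-rich libraries. The lowest sham value, 1887, did too.

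Npr3 (ENSMUSG00000022206, chr15:11839896-11905674, minus strand), the clearance receptor, was the most abundant of the 6 transcripts. In sham fat it ranged from 14448 to 48491 with a median of 40655, and in VSG fat from 12549.7 to 39878 with a median of 24281. At ZT13 the sham libraries had 41257, 42775, 43061 and 45903, and the VSG libraries 12549.7, 21249, 24391 and 39474. At ZT1 they had 29942, 30407, 35395 and 41823, against 15102, 16486, 24100.4 and 28065 after VSG. All VSG libraries were below all sham libraries at these 2 times. At ZT19 sham fat held 14448, 45429.7, 45529 and 48491 and VSG fat 24171, 29988, 33513 and 35299, so 1 sham library, the beige-rich library, lay below every VSG library. Over all times Npr3 fell by 0.61 ± 0.15 (adjusted p = 0.0027, limma). The 3 lowest VSG libraries, at 12549.7, 15102 and 16486, were the 3 B cell-rich VSG libraries. Without the 4 B cell-rich libraries the difference was -0.47 (adjusted p = 0.0185), and without the 2 beige-rich libraries it was -0.71.

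**Figure D3:**
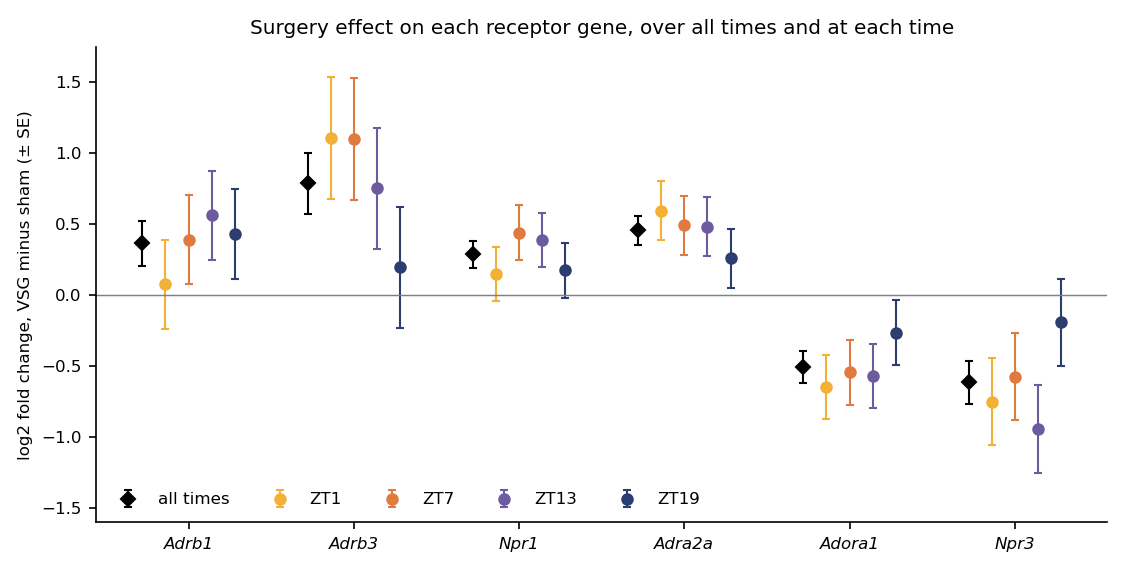
Log2 fold change of VSG relative to sham with its standard error (vertical axis) for each receptor gene, over all times (black diamonds) and at ZT1, ZT7, ZT13 and ZT19 (coloured circles). Adrb1, Adrb3, Npr1 and Adra2a have estimates above 0 and Adora1 and Npr3 below 0 at all 4 times, and the estimate at ZT19 is nearest to 0 for Adrb3, Adra2a, Adora1 and Npr3.

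The single times gave few calls at 4 animals per group. At ZT13, where 9.94% of all genes were called (4.21% higher and 5.72% lower), 1 member was called, Npr3, at -0.94 ± 0.31 (adjusted p = 0.0496, limma). This call was lost in 24 of 32 fits that left out 1 library and in 8 of 14 other settings, among them edgeR on the recovered reads (adjusted p = 0.0684). At ZT1, where 5.52% of genes were called, and ZT7, with 5.09%, no member was called by limma. The nearest were Adra2a at ZT1 (0.60 ± 0.21, adjusted p = 0.0793) and Adora1 at ZT1 (-0.65 ± 0.23, adjusted p = 0.0824). The counts of all genes behind these shares, 860 at ZT1, 794 at ZT7 and 1549 at ZT13, depended on single libraries. With 1 library left out they were 21 to 2873, 82 to 1668 and 197 to 2759, and they moved by over 1.5 times without any 1 of 6, 7 and 8 of the 8 libraries of the time. At ZT19 limma called 0.0% of all genes, with 1072 genes at an unadjusted p under 0.05, and edgeR called 0 and DESeq2 62, with no member among them.

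Whether the surgery effect differed between times was asked by the interaction term. It called 0.0% of genes in limma, where 225 genes had an unadjusted p under 0.05, with 0 called by edgeR and 1 by DESeq2. For the members its unadjusted p ran from 0.372 for Npr3 to 0.732 for Adrb1. A difference in effect between ZT19 and the other times was therefore not detected with these groups, although the estimates at ZT19 were small for Adrb3 (0.20 ± 0.43) and Npr3 (-0.19 ± 0.31).

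A daily rhythm was asked with a cosine of 24 h within each surgery, its amplitude being the log2 distance from mean to peak. No member was called after sham surgery, where 1.6% of all genes were called, or after VSG, where 0.507% were. The largest amplitudes in sham fat were those of Adrb3 (0.65, peak at ZT18.0, adjusted p = 0.342) and Adora1 (0.34, peak at ZT13.2, adjusted p = 0.251). After VSG they were those of Adrb1 (0.50, peak at ZT12.7, adjusted p = 0.457) and Adora1 (0.40, peak at ZT14.5, adjusted p = 0.239). With libraries weighted by their quality Adora1 was called in both surgeries, at adjusted p = 0.031 and 0.0379. Over all 15588 genes these weights called 1783 after sham surgery and 158 after VSG, against 250 and 79 without them. Mean Adora1 values were lowest at ZT1 and highest at ZT13 in both, at 2685 ± 641 and 4188 ± 364 in sham fat and 1723 ± 493 and 2965 ± 1036 in VSG fat (SD, n = 4). The B cell-rich libraries, most of them at ZT1, held 1887 (sham ZT1), 1297 and 1597 (VSG ZT1) and 1698 (VSG ZT13).

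Within the VSG animals, none of the members was called for a slope on weight loss, where 2.71% of all genes were called. The members nearest to the threshold were Adora1, with -0.07 ± 0.02 log2 units per unit of weight loss (adjusted p = 0.06, limma), and Npr3, with -0.08 ± 0.02 (adjusted p = 0.1). DESeq2 on the recovered reads called both, at adjusted p = 0.0129 and 0.0322. The count of all genes called, 423, was 0 to 961 with 1 VSG library left out, and 12 of the 16 libraries moved it by over 1.5 times. Without the 2 animals farthest from the median weight loss the slopes were -0.06 and -0.06, with adjusted p-values of 0.326 and 0.462. Within sham animals 0.00642% of genes were called and no member, with the Npr3 slope at -0.08 ± 0.05 (adjusted p = 0.507). The slopes were fitted with a mean for each time, and the VSG animals ranged from 10.59 to 23.12 in weight loss. The animal with a loss of 22.8 gave the B cell-rich library VSG ZT13 replicate 1, with the lowest Npr3 value, 12549.7, and 1698 for Adora1. Without the B cell-rich libraries the slopes of both genes stayed below 0 and were not called.

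**Figure D4:**
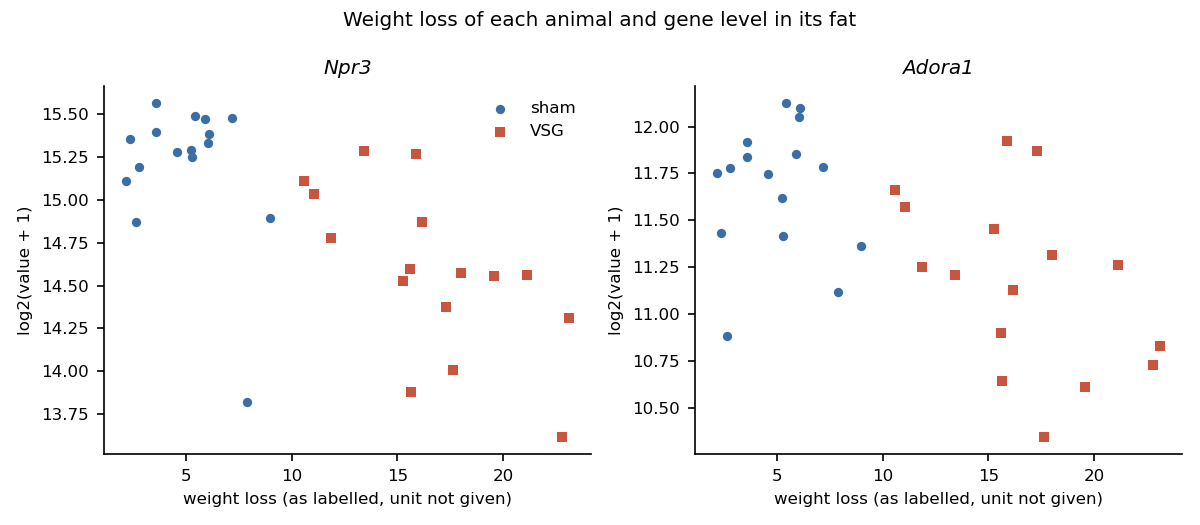
Level of Npr3 (left) and Adora1 (right) as log2(value + 1), vertical axis, against the labelled weight loss of the animal, horizontal axis, circles for sham and squares for VSG. The weight loss of the groups does not overlap, and within the VSG squares the levels tend to be lower at the larger losses. The square at 22.8 is a B cell-rich library.

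Levels can be compared between genes only per length, here as normalized value per kilobase of annotated exon. The median level in sham fat was 4483 for Npr3, 1069 for Adrb3, 602 for Adora1, 584 for Npr1, 51.9 for Adrb1 and 18.2 for Adra2a. In VSG fat the order was Npr3 at 2678, Adrb3 at 2138, Npr1 at 752, Adora1 at 415, Adrb1 at 72.1 and Adra2a at 26.7. Npr3 was above Adrb3 in 28 of 32 libraries, and Adrb3 was above Adora1, Npr1 above Adrb1, and Adrb1 above Adra2a in all 32. Adora1 and Npr1 were not separated in sham fat, where Adora1 was the higher in 8 of 16 libraries, but it was the higher in 1 of 16 VSG libraries. Lengths came from GENCODE M21 within the span the deposited table gives each gene, so levels per length depend on that annotation.

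The balance within pairs of receptors was described as a ratio of levels per length in each library, without a test. Npr1 over Npr3, signalling over clearing receptor, had a median of 0.123 in sham fat (0.11 to 0.44) and 0.295 in VSG fat (0.131 to 0.413). Adrb3 over Adora1 had a median of 2.02 in sham fat (1.18 to 14.2) and 5.05 in VSG fat (2.66 to 13.3). Adrb3 over Adra2a, both of which rose, had medians of 57.8 and 78.2 and wide overlap (24.2 to 156 in sham and 37.0 to 209 in VSG fat). The highest sham ratio of Npr1 over Npr3, 0.44, belongs to the library with 14448 for Npr3.

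Within groups, Adra2a, Npr3 and Adora1 varied together from library to library. Each library's log2 level was taken as a deviation from the mean of its group of 4, and the 15 pairs of members were correlated over 32 libraries. Adra2a ran against Npr3 (Pearson r = -0.73, Spearman rho = -0.70, adjusted permutation p = 0.0033 and 0.00375) and against Adora1 (r = -0.63, rho = -0.60, adjusted permutation p = 0.00865 and 0.0119). Npr3 and Adora1 ran in the same direction (r = 0.71, rho = 0.64, adjusted permutation p = 0.00865 and 0.0119). Leaving out the 2 libraries farthest from the median on the first-named gene gave r of -0.79, -0.57 and 0.51. The other 12 pairs, all of those with Adrb1, Adrb3 or Npr1, had adjusted permutation p-values of 0.19 or more. The p-values are two-sided, from 100000 resamples within groups, adjusted over the 15 pairs.

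These 3 relations did not pass the threshold without the libraries rich in B cell RNA. Without the 4 B cell-rich libraries, r was -0.67 for Adra2a with Npr3, -0.51 for Adra2a with Adora1 and 0.62 for Npr3 with Adora1, and the adjusted permutation p-values were 0.068, 0.121 and 0.111. A different pair then passed, Npr1 with Npr3, at r = -0.54 (adjusted permutation p = 0.0474), where r over all 32 libraries was 0.05. Without the 7 muscle-rich libraries r was -0.82, -0.68 and 0.75, with adjusted p-values of 0.00435, 0.0294 and 0.0294. After quantile normalization r was -0.61, -0.39 and 0.62, with adjusted p-values of 0.0542, 0.179 and 0.0542. Without the 2 beige-rich libraries r was -0.63, -0.61 and 0.72, with adjusted permutation p-values of 0.018, 0.0198 and 0.018. Adrb3 with Adora1 then passed too, at r = 0.55 (adjusted permutation p = 0.0302), where r over all 32 libraries was 0.35. Whether RNA from other cells takes part in these relations was not tested.

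**Figure D5:**
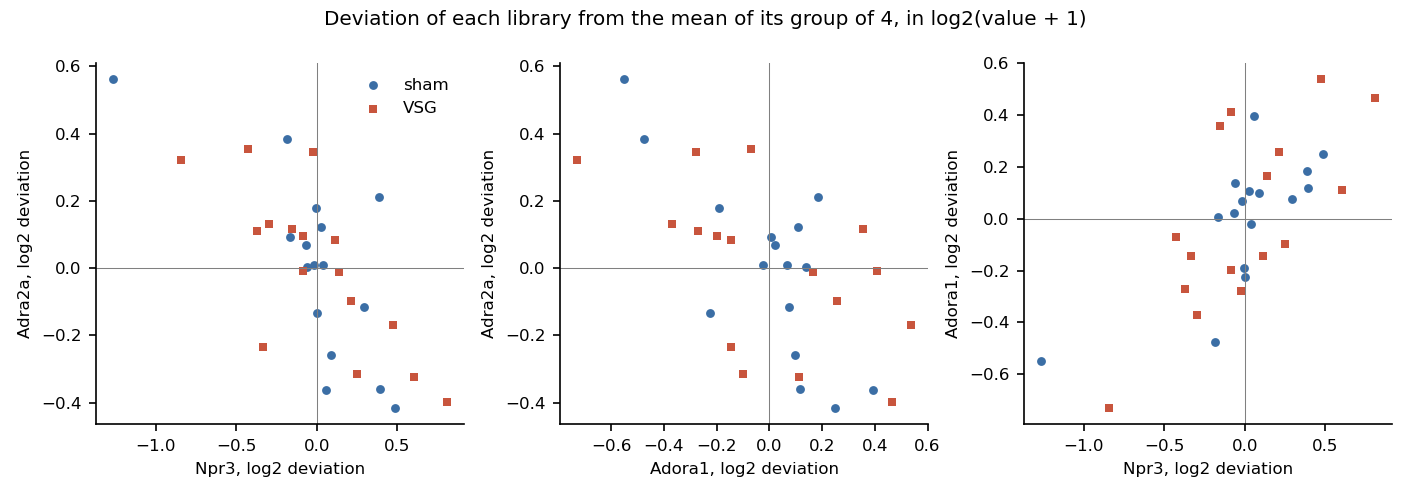
Deviation of each library from the mean of its group of 4 in log2(value + 1), for Adra2a against Npr3 (left), Adra2a against Adora1 (middle) and Adora1 against Npr3 (right), circles for sham and squares for VSG. The points slope downwards in the left and middle panels (r = -0.73 and -0.63) and upwards in the right panel (r = 0.71).

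The genes with the most similar pattern were listed by Pearson r of log2(value + 1) over the 32 libraries, among 12078 genes with a mean of at least 50. For Npr3 they were Mpdz (0.96), Adamts5 (0.95), Lpgat1 (0.95), the leptin gene Lep (0.93) and Folh1 (0.93), and the r of deviations within groups for Lep was 0.97. For Adora1 they were Zhx3 (0.92), Extl3 (0.91), Myo19 (0.90), Lpin1 (0.90) and AI464131 (0.90). For Adrb3 the highest was Lman2l (0.91), followed by Eci3, Sfxn1, Gcat and Dus2. The highest for Npr1 were C4b (0.85), Fth1, Suds3, Dusp26 and Pde9a (0.82), for Adra2a AU021092 (0.84), St3gal6, Adck2, Usp21 and Htra2, and for Adrb1 Lrfn4 (0.83), Rprml, Zfp768, Lzts2 and Rhbdd2. The libraries share the surgery groups and the libraries that stand apart, so these r values are descriptions.

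The rest of the pathway was followed in 9 lists of genes for the comparison of surgeries over all times, against the 18.3% of genes higher and 20.9% lower. Of the enzymes and transporters that make or remove the ligands, 2 of 15 tested rose and 7 fell. The largest fall by p was in Adk, adenosine kinase, which disposes of intracellular adenosine (2367 ± 349 to 1357 ± 337, SD, n = 16, log2 fold change -0.83 ± 0.09, adjusted p = 4.5e-07, limma). Mme, neprilysin, a peptidase that degrades natriuretic peptides, fell from 3237 to 1926 (-0.78 ± 0.11). Entpd1, which breaks down extracellular ATP, rose from 1006 to 1450.3 (0.52 ± 0.09), as did Slc29a1, a nucleoside transporter (0.22 ± 0.09, adjusted p = 0.0473), whose call was lost in 22 of 32 fits that left out 1 library.

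Of 28 other receptors known to act on lipolysis, 5 rose and 6 fell. Hcar1, the lactate receptor that restrains lipolysis, rose from 1860.3 to 2989.9 (0.77 ± 0.12, adjusted p = 3.56e-05) and the secretin receptor Sctr from 257 to 552 (1.37 ± 0.22). Vipr2, a receptor for vasoactive intestinal peptide, fell from 65.4 to 14.2 (-2.03 ± 0.24, adjusted p = 2.39e-06), and Adcyap1r1, the PACAP receptor, from 879.6 to 555 (-0.68 ± 0.11). The remaining 17 did not pass the test.

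Between receptor and kinase, 2 of 15 G protein and adenylyl cyclase genes rose and 2 fell, and 11 did not pass the test. Gnal, a stimulatory alpha subunit, rose from 463 to 859.9 (0.88 ± 0.16, adjusted p = 0.000151) and the cyclase Adcy4 from 1946 to 2591 (0.41 ± 0.08). Gnao1, an alpha subunit of the inhibitory class, fell from 412 to 294 (-0.51 ± 0.12), and the cyclase Adcy6 by 0.16 ± 0.06, a call lost in 23 of 32 fits that left out 1 library. In the protein kinase A list of 11, Akap1, which anchors the kinase at mitochondria, rose (0.41 ± 0.08), and the regulatory subunit Prkar2b, the main one of fat (-0.37 ± 0.07), and the catalytic subunit Prkaca (-0.18 ± 0.06) fell.

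Among 16 phosphodiesterases, which end cAMP and cGMP signals, 1 rose and 6 fell. Pde9a, which breaks down cGMP, rose from 331 to 459.5 (0.45 ± 0.10, adjusted p = 0.000985). The cAMP-specific Pde8a (-0.34 ± 0.07) and Pde7b (-0.34 ± 0.08) fell. Pde3b, through which insulin opposes lipolysis and which is named here after its values were seen, had -0.22 ± 0.11 and was not called (adjusted p = 0.103). In the cGMP list 1 of 8 rose, again Pde9a, and 5 fell, among them the subunits of the nitric oxide-sensitive guanylyl cyclase Gucy1b3 (-0.74 ± 0.08, adjusted p = 7.69e-07) and Gucy1a3 (-0.31 ± 0.08). Without the 7 muscle-rich libraries, with VSG ZT19 replicate 3 alone in its group, fewer genes of both lists fell. The median log2 fold changes were then -0.21 for the cGMP list and -0.07 for the phosphodiesterases, against -0.25 and -0.10 in all libraries.

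Of 13 genes that desensitize receptors, 6 rose and 2 fell, with a median log2 fold change of 0.24. With the B cell and muscle marker levels as covariates 4 rose and 4 fell. Arrb1, a beta-arrestin, rose from 3443 to 4297 (0.33 ± 0.05, adjusted p = 5.5e-05), and Ikbke, a kinase reported in mice to blunt the catecholamine response of fat, from 524 to 958 (0.85 ± 0.18). Rgs5, which is also among the pericyte markers, fell from 16222 to 9460.5 (-0.82 ± 0.11), and the receptor kinase Grk5 fell (-0.25 ± 0.06). Macrophages express arrestins and Ikbke as well, and the rise of macrophage markers was given above. Its part in these values was not tested.

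At the lipid droplet, 2 of 17 lipase and droplet protein genes rose and 6 fell, with a median of -0.22. Pnpla2, adipose triglyceride lipase, rose from 58384 to 71488 (0.32 ± 0.12, adjusted p = 0.0383), a call lost in 14 of 32 fits that left out 1 library, and Aqp7, the glycerol channel, rose from 6613 to 8592.5 (0.39 ± 0.08). Hilpda, an inhibitor of that lipase, fell from 1316 to 608 (-0.96 ± 0.16, adjusted p = 4.48e-05), and the acyl-CoA synthetase Acsl1 from 54521 to 31225 (-0.82 ± 0.10). Of 16 genes known to be induced by cAMP, 3 rose and 3 fell. Nr4a1 (0.45 ± 0.13) and Nr4a3 (0.71 ± 0.20), nuclear receptors induced within hours by beta-agonists, rose, whereas Dio2 fell from 55.3 to 12.9 (-2.23 ± 0.33, adjusted p = 1.65e-05) and Crem from 569.6 to 418 (-0.44 ± 0.08). Of the pathway genes named here, Slc29a1, Adcy6, Prkaca, Gucy1a3, Pnpla2 and Nr4a1 were not called without the 7 muscle-rich libraries. That fit has VSG ZT19 replicate 3 alone in its group. With the B cell and muscle marker levels as covariates, 2 genes of the cGMP list, 4 of the ligand list and 4 of the lipase and droplet list fell. Without covariates these were 5, 7 and 6. Falls were 5 against 6 for the phosphodiesterases and for the other receptors, and 1 against 2 for G proteins and cyclases. In the protein kinase A and cAMP-induced lists they stayed at 2 and 3.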

How the data were processed

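Groups and weight loss came from the labels, and replicate numbers 1 to 4 follow accession order. The deposited signal values, judging from the values themselves, are read counts scaled per library, since all of them (100% in each library) were whole multiples of a common step to a tolerance of 0.001; dividing by that step returned whole reads. The submitters' processing notes name the build mm10 and the tools DESeq2 1.24.0, R 3.6.3, featureCounts 1.5.0-p1, STAR 2.5.2a and bcl2fastq 2.17.1.14. The sources used here do not give whether strand was used in counting, so reads of the opposite-strand genes overlapping Adrb3 (Gm45470), Npr1 (Gm16048, mean value 17.6), Adora1 (Mybph, mean value 10.4) and, at its GENCODE 5′ end, Npr3 (Gm5144) cannot be told apart from theirs.

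Of 18124 genes, 15588 with a mean of at least 10 were fitted by limma 3.58.1 in R 4.3.3 on log2(value + 1), using its trend of variance on mean. A model of 8 group means gave the surgery effects and the interaction, rhythms came from cosine and sine terms of 24 h within each surgery, and slopes on weight loss were fitted within each surgery with a mean per time. Pairs of members were tested by permutation of library deviations within groups (NumPy 2.4.6). The steps were tested on simulated counts. Across all times limma called 6108 genes between surgeries, against 6115 by edgeR and 6558 by DESeq2 on the whole reads. Alternatives were quantile normalization, TMM rescaling, array weights, pseudocounts of 0.5 and 5, no filter or a minimum mean of 50, DESeq2 1.42.0 and edgeR 4.0.16 on whole reads, marker covariates, other designs, and the omission of single libraries. Omitting the B cell-rich, muscle-rich or beige-rich libraries (those above the widest gap in the mean log2 value of each list) or the 2 VSG animals whose weight loss lay farthest from its median, and all alternatives for pairs, were added after seeing the data.

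The members, 9 pathway lists and 11 marker lists were chosen with earlier results of these data known. Named genes were all members, up to 2 called genes in each direction with the smallest p per pathway list, and the 5 genes most similar to each member with a mean of at least 50, without predicted or clone names. Exon lengths came from GENCODE M21. The tests take animals, not reads, as replicates, and Adra2a with 42 to 210 reads has the largest counting error.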

Additional observations from a re-analysis of the deposited data

Results flagged for a closer look

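In 5 of the 48 combinations of a member and a group of 4 animals, 1 library stood far from the other 3 by Dixon's criterion at the 95% level, which chance meets in about 1 of 20 groups. Adrb3 was 18598 in VSG ZT7 replicate 2, where the median of the others was 4826. It was 15762 in sham ZT19 replicate 4, where the median of the others was 5982, and 5764 in sham ZT13 replicate 1 against 2514. Npr3 was 14448 in sham ZT19 replicate 4, against a median of 45529 in the others. Adra2a was 85.6 in VSG ZT7 replicate 1, against 116. The VSG ZT7 replicate 2 and sham ZT19 replicate 4 libraries are the 2 beige-rich libraries, and whether those cells account for their values was not tested.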

How the results depend on the processing

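Over all times, the 5 member calls and their directions held in every alternative except without the 7 muscle-rich libraries. In that fit, with VSG ZT19 replicate 3 alone in its group, Adrb3 and Npr1 were not called and the directions held. Leaving out 1 library at a time gave 5 to 6 called members, the sixth being Adrb1. At single times the count of called members was less stable. Array weights called 3 at ZT1, 5 at ZT7 and 6 at ZT13. Over all 15588 genes they called 3923, 4097 and 5381 at these times, against 860, 794 and 1549 without them. For the rhythms after sham surgery and after VSG they called 1 member each. Over all genes they called 1783 and 158 there, against 250 and 79 without them. For weight loss after VSG they called 2 members, where DESeq2 also called 2. At ZT1, 1 was called without the beige-rich libraries, where 1349 were called over all genes. At ZT7, 1 was called by DESeq2, 1 with marker covariates and 1 without the B cell-rich libraries. Over all genes these settings called 1297, 1432 and 1390 at ZT7. At ZT13, 0 were called in the 8 libraries of that time alone, by edgeR, with no filter, with a pseudocount of 5, after quantile normalization and without the muscle-rich libraries. With marker covariates and without the B cell-rich libraries, the 1 called at ZT13 was Npr1 (adjusted p = 0.0119 and 0.0412, limma), not Npr3. Over all genes these 2 settings called 1366 and 496 at ZT13. Leaving out 1 library gave 0 to 2 called members at ZT1, 0 to 1 at ZT7 and 0 to 3 at ZT13. It gave 0 to 1 for the rhythm after VSG and 0 to 2 for weight loss after VSG. Of the 3 pairs, 0 passed after quantile normalization and without the B cell-rich libraries the 1 that passed was another, Npr1 with Npr3. Without the beige-rich libraries the 3 pairs passed, and so did Adrb3 with Adora1.

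Signs turned only for estimates that were not called. Adrb1 at ZT1 was -0.15 with array weights, -0.059 after quantile normalization, -0.14 without the B cell-rich and -0.11 without the muscle-rich libraries, and -0.13 to 0.24 leaving out 1 library; Npr1 at ZT1 was -0.12 to 0.30. At ZT19, Npr3 was 0.033 after quantile normalization. Adrb3 at ZT19 was -0.28 without the muscle-rich libraries, with VSG replicate 3 alone, and -0.064 to 0.54 leaving out 1 library. Slopes on weight loss after sham surgery were 0.11 for Adrb3 with no mean per time, 0.15 for Adrb3 and -0.00043 for Npr1 without the muscle-rich libraries, and leaving out 1 library -0.068 to 0.17 for Adrb3, -0.011 to 0.079 for Npr1 and -0.014 to 0.14 for Adrb1. After VSG the Npr1 slope was -0.010 without the muscle-rich libraries and -0.0022 to 0.0194 leaving out 1 library. The cause of these changes was not tested.

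The count of all genes called ranged over the alternatives other than single left-out libraries from 4387 to 8790 over all times, 0 to 3923 at ZT1, 583 to 4097 at ZT7, 46 to 5381 at ZT13, 0 to 906 at ZT19, 165 to 1783 and 46 to 237 for rhythms after sham surgery and VSG, 0 to 608 for weight loss after sham surgery and 0 to 2010 after VSG. Leaving out 1 library, it was 5488 to 6908 over all times, 21 to 2873, 82 to 1668, 197 to 2759 and 0 to 46 from ZT1 to ZT19, 146 to 310 and 58 to 137 for rhythms after sham surgery and VSG, and 0 to 186 and 0 to 961 for weight loss after sham surgery and VSG. No paired analysis was possible because replicate numbers were given in accession order and pair no animals.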

Other observations

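VSG ZT19 replicate 2 had the third highest Adrb3 value, 15139, with a summed brown and beige marker value of 5587, inside the 1599.8 to 5627 of the 30 libraries outside the beige-rich ones, and with Ucp1 at 24.8. That library is among the 7 muscle-rich ones.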
